A study of Homo sapiens and Mus musculus with 92 samples.

Results

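Annexins are a family of calcium-dependent proteins that bind negatively charged phospholipids, and 9 annexin genes, ANXA1, ANXA2, ANXA3, ANXA4, ANXA5, ANXA6, ANXA7, ANXA9 and ANXA11, were followed through knockdown of MLL1 and of AF9 in HEL cells. HEL is an established human erythroleukemia cell line, which the labels describe as an erythroblast. The members were the rows of both count tables whose gene symbol equals one of these names, and they make up 9 of the 28103 gene rows of each table. MLL1 (gene KMT2A) is a histone H3 lysine 4 methyltransferase and AF9 (gene MLLT3) is a YEATS-domain reader of acylated histones that joins elongation complexes, and the 2 proteins are fused in a form of leukemia. The RNA-seq experiments compared MLL1 knockdown (KD) cells with their control cells (3 libraries each) and AF9 KD cells with a separate set of control cells (2 libraries each). The controls, labelled WT, carried a control hairpin according to the study's methods. Each knockdown used a single short hairpin RNA (shRNA #1) in a single cell line. Nothing in the labels says that replicates came from separate cultures, so p-values measure the spread between these libraries, which may be technical.

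Each annexin has a conserved core of repeats that holds the calcium sites and a variable N-terminal tail that sets its partners, often S100 proteins. Through these the family takes part in membrane repair, vesicle transport, plasminogen activation and the recognition of exposed phosphatidylserine. ANXA1 is known as a glucocorticoid-regulated protein of leukocytes that restrains inflammation through formyl peptide receptors.

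The libraries held 6966345 to 10380241 counts in the MLL1 experiment and 12278989 to 14232408 in the AF9 experiment. KMT2A fell to 63.5% of its control level in MLL1 KD cells and MLLT3 to 18.6% in AF9 KD cells, and in both cases every KD library lay below every control library. KMT2A passed the test (edgeR quasi-likelihood, adjusted p = 3.5e-07) only in the fit with the replicate block described below. Without the block its edgeR adjusted p was 0.072, and MLLT3 had an edgeR adjusted p of 3.3e-08. The mean of each targeted gene was also lower in the other knockdown. KMT2A was at 80.2% of control in AF9 KD cells, without overlap, as were 66.0% of genes. MLLT3 was at 82.2% in MLL1 KD cells, where the groups overlapped. In the MLL1 experiment, replicate 1 of both groups stood apart from replicates 2 and 3: the chi-square per degree of freedom between libraries of a group was 30.2 to 56.6 with replicate 1 and 2.37 to 2.66 without it. All 12 erythroid markers checked had counts in every group, and of 7 monocyte and granulocyte markers 2 to 3 were at 0 in every library of a group. The summed level of those 7 was 14.7 to 26.5 CPM (counts scaled to a common library size) in the MLL1 experiment and 66.7 to 94.4 CPM in the AF9 experiment, that of 4 lymphoid markers was at most 7.64 CPM, and that of the erythroid markers was 1293 to 11294 CPM. The summed erythroid level was lower in MLL1 KD than in control cells (means 1435 against 1858 CPM), with 11 of 12 markers lower. With the replicate block 6 were called lower (HBG2, HBA1, HBA2, HBE1, HBZ and ALAS2), beside 360 of the 14391 genes tested. None of the 12 was called without it. After AF9 KD the sum was also lower (8680 against 11268 CPM) while 8 of 12 markers were higher. The gamma globins HBG1 and HBG2 were called lower, beside 5.06% of genes, and the alpha globins HBA1 and HBA2 higher, beside 8.02%. Both are pairs of near-identical genes, whose separate counts are uncertain. With GC content offsets only HBG2 (lower) and TFRC (higher) were called, and with total counts without TMM factors neither gamma globin was. The median log2 fold change of the 12 was 0.38, or 0.01 with GC content offsets. The summed level of 6 megakaryocyte markers was 2517 against 3212 CPM in MLL1 KD and 1634 against 1475 CPM in AF9 KD cells. PF4 was called higher in MLL1 KD with the replicate block, beside 2.22% of genes. The summed level of the monocyte and granulocyte markers was lower in AF9 KD than in control cells (71.3 against 91.1 CPM). Among them ITGAM, at 12 to 46 counts, was called higher, beside 8.02% of genes. LYZ was at 76.1% of control there, and CSF1R, at 3 to 9 counts, at 48.0%. The part of these markers in the annexin values was not tested, and fewer cells of a type and less RNA per cell cannot be told apart in bulk samples.

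The guide strands of the hairpins are shown because positions 2 to 8 of a guide, its seed in capitals, can pair with other transcripts:
MLL1 shRNA #1: aAGTGGAAtgtttaacagtgc
AF9 shRNA #1: aTTAATTTgtgaggctttgaa
The 3′UTR of none of the 9 members held the 7 letters that match the MLL1 seed (TTCCACT), which occur in 13.7% of 19190 canonical 3′UTRs. Only ANXA2 held the match of the AF9 seed (AAATTAA) in its 3′UTR, at 1 position, against 26.1% of these 3′UTRs. In coding sequence the MLL1 seed match occurred in ANXA7 and the AF9 seed match in ANXA2, ANXA5, ANXA6 and ANXA7, at 1 position each. The share of all coding sequences with a match was not counted.

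A gene was called at an adjusted p below 0.05 and a fold change of at least 1.5. All 9 members passed the filter of a mean of 1 TPM (a level per transcript length and depth) in both experiments. In MLL1 KD cells none of them was called without pairing the replicates, beside 0.0625% of the 14391 genes tested, and with the replicate block, which compares libraries of equal replicate number (a pairing that sets replicate 1 apart from 2 and 3 more than it tells 2 from 3), ANXA1 and ANXA6 were upregulated, beside 2.22% of genes called in that direction. In AF9 KD cells ANXA1 and ANXA3 were downregulated, beside 5.06% of the 13330 genes tested, and no member was called upregulated, beside 8.02% of genes. At an unadjusted p below 0.05, 0 members were past edgeR's test in MLL1 KD cells without pairing, beside 9.97% of genes, and in AF9 KD cells 2 were past it upward and 4 downward, beside 40.7% of genes in either direction. DESeq2 on the same genes also called no member in MLL1 KD cells, beside 1.61% of genes, and none upward in AF9 KD cells, beside 6.07%. ANXA1 was thus called in opposite directions, but in MLL1 KD cells only with the replicate block. Its AF9 KD call was lost in 6 of 15 alternatives. The median log2 fold change of the 9 members was 0.04 after MLL1 KD and -0.13 after AF9 KD, against 0.01 over all genes tested in either experiment. With exon GC content offsets the AF9 KD median of the members was -0.0051, against 0.0079 over all genes. The replicate block is given beside the MLL1 values because it moved the number of genes called there from 9 to 679.

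**Figure D1:**
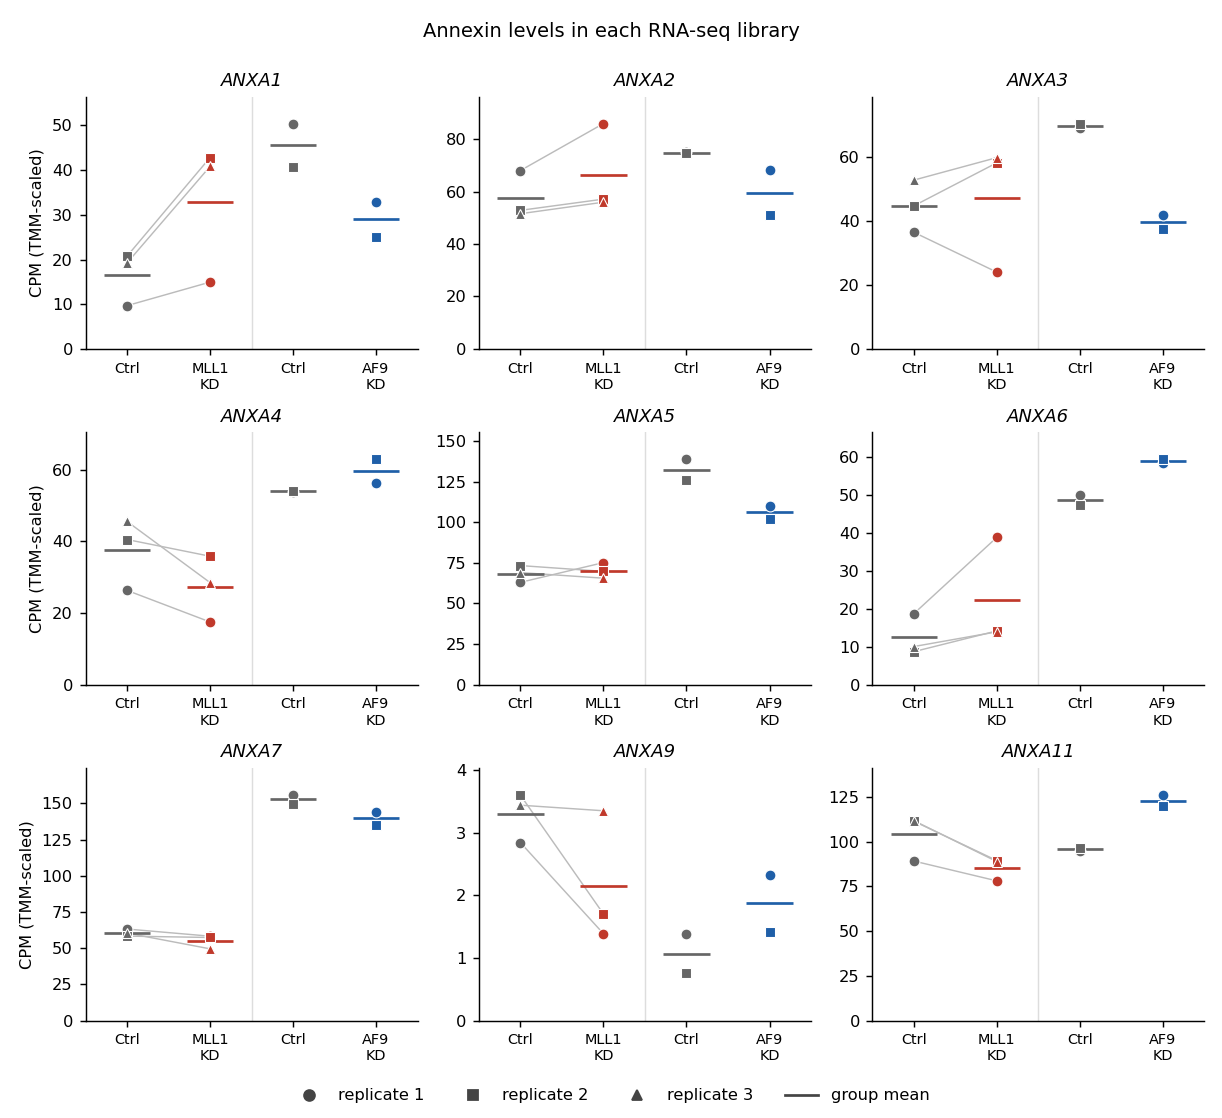
Level of each annexin (y axis, CPM scaled by TMM factors, from 0) in every library of the 4 groups, with a marker shape per replicate number, a bar at the group mean and thin lines joining libraries of equal number in the MLL1 experiment. ANXA1 is higher in the KD library of all 3 MLL1 pairs, from 9.68 to 15.0 CPM in the lowest, and lower in both AF9 KD libraries (25.1 and 32.9 CPM) than in their controls (40.7 and 50.4 CPM).

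ANXA1 lies at chr9:73151865-73170393 (hg38, plus strand). In control cells of the MLL1 experiment it had 9.68, 20.8 and 19.2 CPM in replicates 1, 2 and 3. In MLL1 KD cells it had 15.0, 42.8 and 40.8 CPM. Replicate 1 was the lowest library of both groups, so that the groups overlapped, yet the KD library was above the control library of the same number in all 3 pairs. The mean was 16.6 ± 6.00 CPM in control and 32.9 ± 15.5 CPM in MLL1 KD cells (SD, n = 3), 199% of control.

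Within pairs, the difference of log2 CPM for ANXA1 was 0.61, 1.04 and 1.08 for replicates 1, 2 and 3. Without pairing, the log2 fold change was 0.99 (SE 0.44) with an edgeR adjusted p of 0.516. The fit with the replicate block gave 0.94 (SE 0.15) and an edgeR adjusted p of 3.3e-04. It remained called when any 1 pair was left out of the blocked fit, with log2 fold changes of 0.86 to 1.06, and when replicates 2 and 3 were fitted alone without pairing (1.06).

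In the AF9 experiment ANXA1 had 50.4 and 40.7 CPM in control cells. The AF9 KD libraries had 32.9 and 25.1 CPM, both below both controls. The mean fell from 45.6 ± 6.90 to 29.0 ± 5.47 CPM (SD, n = 2), 63.7% of control, a log2 fold change of -0.65 (SE 0.15, edgeR adjusted p = 0.0051). That value lay close to the required fold change of 1.5, which is 0.58 on the log2 scale, and fell short of it in 6 of the alternatives tried, among them GC content offsets (-0.44) and total counts without TMM factors (-0.57).

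Over all genes, transcripts richer in G and C tended to have higher log2 fold changes in AF9 KD (Spearman rho 0.48 across 13044 genes, a description) and not in MLL1 KD (rho -0.07 across 13987 genes). ANXA1 has the lowest GC content of the members, 36.7% over all its exons and 40.8% in its canonical transcript. Among 640 other genes within 1 percentage point of its exon GC content, the median log2 fold change in AF9 KD cells was -0.22, and 10.0% of them were below ANXA1. In MLL1 KD cells 683 such genes had a median of 0.04, and 96.6% of them were below ANXA1. The part of GC content in the AF9 KD value was tested with offsets only: with exon GC content the log2 fold change was -0.44 (edgeR adjusted p = 0.0169) and with canonical transcript GC content -0.50 (edgeR adjusted p = 0.0095), both past the adjusted p and under 1.5-fold.

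**Figure D2:**
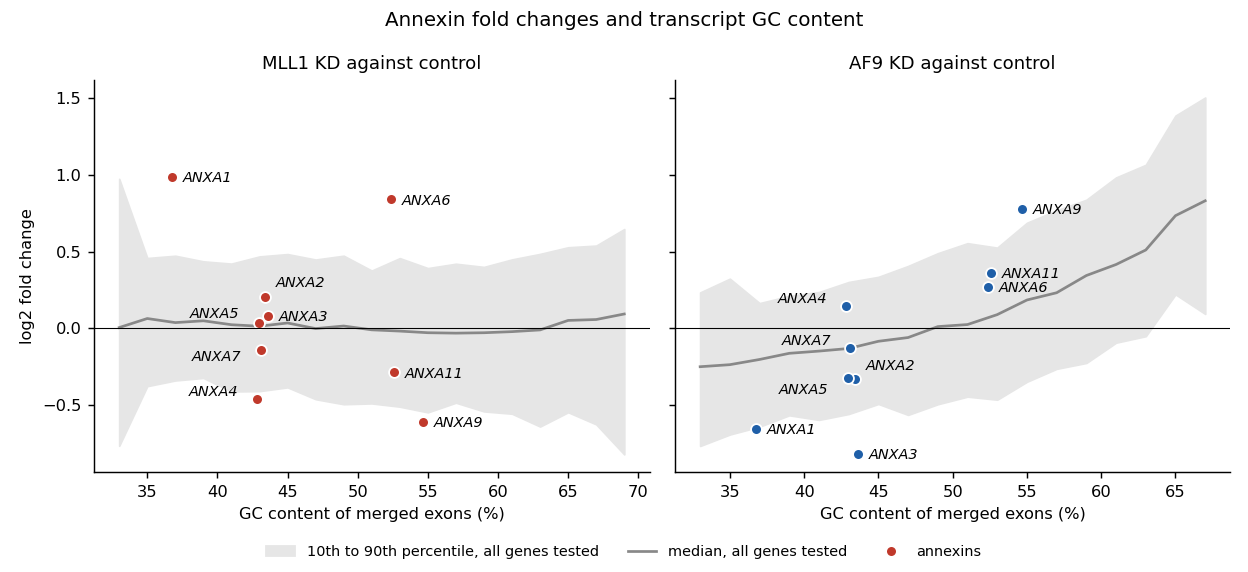
Log2 fold change (y axis) of the 9 annexins against the GC content of their merged exons in percent (x axis), for MLL1 KD (left, without pairing) and AF9 KD (right), over the median (line) and the 10th to 90th percentile (band) of all genes tested in bins of GC content. The median rises with GC content in AF9 KD cells and stays near 0 in MLL1 KD cells, and ANXA3 lies below the band in AF9 KD cells at 43.6% GC.

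ANXA6, an annexin whose core is duplicated and which acts at endosomes and in cholesterol traffic, had 18.7, 8.72 and 10.1 CPM in control cells of the MLL1 experiment. The MLL1 KD libraries had 38.8, 14.2 and 13.9 CPM. Replicate 1 was the highest library of both groups, the reverse of ANXA1, and the control library of replicate 1 lay above the KD libraries of replicates 2 and 3. The KD library was higher in all 3 pairs, by 1.04, 0.69 and 0.46 on the log2 scale. Without pairing the log2 fold change was 0.84 (SE 0.47, edgeR adjusted p = 0.628), and with the replicate block it was 0.77 (SE 0.17, edgeR adjusted p = 0.0050), which was called. With replicate 1 left out of the blocked fit it was 0.57 (edgeR adjusted p = 0.0347), just short of a 1.5-fold change, so that this call rested on replicate 1. In AF9 KD cells ANXA6 had 58.3 and 59.3 CPM against 50.1 and 47.2 CPM in control cells. The groups did not overlap, and the log2 fold change of 0.27 (SE 0.10, edgeR adjusted p = 0.0631) did not pass the test.

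ANXA3, known as an abundant annexin of neutrophil granules, had 36.4, 44.7 and 52.7 CPM in control and 24.0, 58.1 and 59.7 CPM in MLL1 KD cells. Its pairs went in different directions, with differences of -0.60, 0.38 and 0.18 on the log2 scale, and the log2 fold change was 0.08 (SE 0.34) without and 0.01 (SE 0.15) with the replicate block. In AF9 KD cells it had 41.8 and 37.4 CPM against 69.0 and 70.4 CPM in control cells. These groups were far apart, with means of 39.6 ± 3.14 and 69.7 ± 0.96 CPM (SD, n = 2). ANXA3 fell to 56.8% of control, a log2 fold change of -0.81 (SE 0.11, edgeR adjusted p = 1.9e-04). It was called in every alternative tried, with log2 fold changes of -0.89 to -0.67, and 3.43% of the 1166 other genes of like GC content were below it.

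The DNA just upstream of the 3 called members is shown because MLL1 holds a CXXC domain that binds unmethylated CpG dinucleotides. The stretches end at the outermost annotated start of each gene and are given 5′ to 3′ on the gene's strand (RefSeq promoter windows, GRCh38.p14), with TATAAA in capitals for ANXA1 and CG in capitals for ANXA3 and ANXA6:
ANXA1, chr9:73151615-73151864, plus strand: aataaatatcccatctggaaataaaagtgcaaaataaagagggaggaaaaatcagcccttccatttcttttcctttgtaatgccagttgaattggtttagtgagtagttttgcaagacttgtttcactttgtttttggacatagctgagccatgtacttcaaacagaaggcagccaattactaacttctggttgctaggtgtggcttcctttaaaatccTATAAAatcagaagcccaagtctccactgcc
ANXA3, chr4:78551520-78551746, plus strand: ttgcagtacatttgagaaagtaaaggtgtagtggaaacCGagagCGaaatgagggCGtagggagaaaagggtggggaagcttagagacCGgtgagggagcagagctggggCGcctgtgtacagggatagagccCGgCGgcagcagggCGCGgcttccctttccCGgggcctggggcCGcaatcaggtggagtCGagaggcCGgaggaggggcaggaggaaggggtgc
ANXA6, chr5:151157816-151158029, minus strand: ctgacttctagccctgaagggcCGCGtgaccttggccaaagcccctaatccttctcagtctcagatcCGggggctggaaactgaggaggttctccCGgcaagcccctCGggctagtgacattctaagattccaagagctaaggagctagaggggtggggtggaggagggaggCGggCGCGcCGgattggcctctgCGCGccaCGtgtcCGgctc
The stretches of ANXA3 and ANXA6 as printed hold 13 CG each. All 9 members matched the promoter table, with 13 windows. The windows were counted over the 250 bases before the RefSeq start, which for ANXA3 and ANXA6 lies inside the gene's outermost annotated start, so that these counts take in bases not printed. ANXA1 held 0 CG there, as did 6.06% of 35116 windows, and a TATAAA that began 31 bases before the start. TATAAA on either strand (TATAAA or TTTATA) was in 10.7% of all windows and in 3 of the 13 member windows, those of ANXA1 and ANXA2, at the same distance from the start, and 1 of ANXA11. ANXA3 held 18 CG and ANXA6 held 19 at its outer start and 10 at an inner one, against a median of 11 over all windows. The other members ranged from 4 (ANXA9) to 36 (the outer start of ANXA4). These matches describe the letters only.

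**Figure D3:**
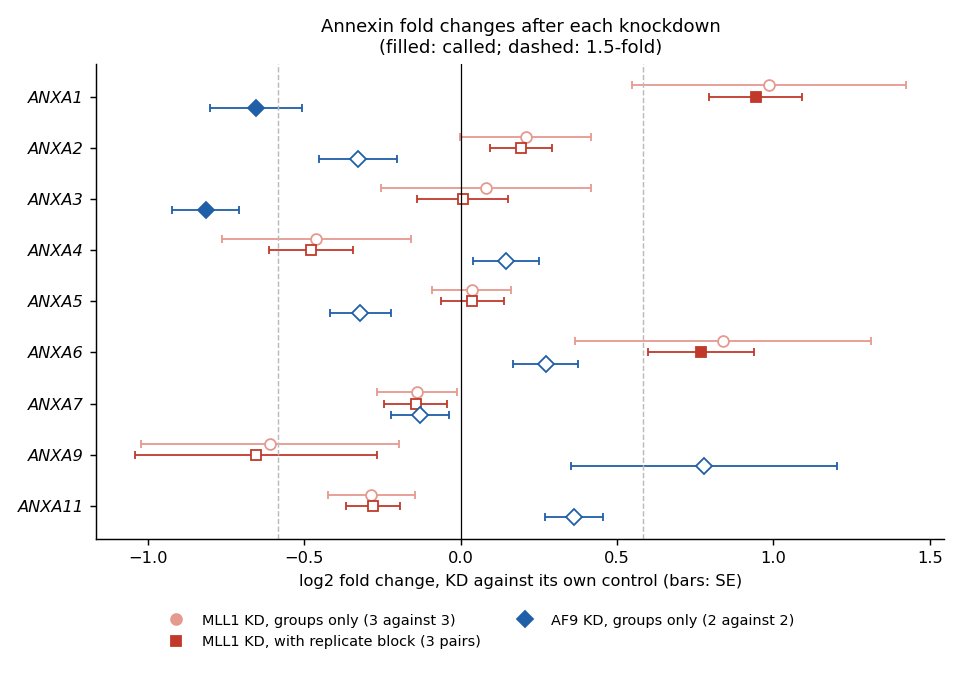
Log2 fold change of each annexin in KD against its own control cells (x axis, bars are SE), for MLL1 KD without pairing (circles, 3 against 3 libraries), MLL1 KD with the replicate block (squares, 3 pairs) and AF9 KD (diamonds, 2 against 2). Filled symbols are called, dashed lines mark 1.5-fold: ANXA1 is filled at 0.94 (MLL1 KD, block) and -0.65 (AF9 KD), ANXA6 at 0.77 (MLL1 KD, block) and ANXA3 at -0.81 (AF9 KD).

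ANXA2 forms a tetramer with S100A10 that binds plasminogen and its activator at the cell surface. It had 68.0, 52.8 and 51.6 CPM in control and 85.9, 57.1 and 56.0 CPM in MLL1 KD cells, a log2 fold change of 0.21 (SE 0.21, edgeR adjusted p = 0.83). In AF9 KD cells it had 68.0 and 51.1 CPM against 75.0 and 74.6 CPM, a log2 fold change of -0.33 (SE 0.12, edgeR adjusted p = 0.0626), and the AF9 KD libraries differed from each other more than the controls did. ANXA2 is uncertain as a count, because other annotated genes, chiefly the processed pseudogene ANXA2P2, share 47.3% of its transcript's 31-base stretches. ANXA2P2 took 1 count beside 3103 for ANXA2 in the MLL1 experiment and 453 beside 3486 in the AF9 experiment, 0.0322% and 11.5% of both rows together. Reads were thus split between the copies differently in the 2 tables, and the cause was not tested.

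ANXA5, an anticoagulant protein whose affinity for phosphatidylserine is used to stain dying cells, had 63.0, 73.3 and 69.0 CPM in control and 75.2, 69.8 and 65.6 CPM in MLL1 KD cells. The groups overlapped, with a log2 fold change of 0.04 (SE 0.13, edgeR adjusted p = 0.967). In the AF9 experiment ANXA5 had 138.7 and 126.0 CPM in control and 110.1 and 101.9 CPM in KD cells. It passed the adjusted p there with a log2 fold change of -0.32 (SE 0.10, edgeR adjusted p = 0.0241), short of a 1.5-fold change and beside 14.6% of genes that passed in that direction at any fold, and with exon GC content offsets it did not pass (-0.19, edgeR adjusted p = 0.0812).

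ANXA11, the annexin with the longest N-terminal tail and a partner of S100A6 and PDCD6 that tethers RNA granules to lysosomes, had 89.2, 111.5 and 111.8 CPM in control and 78.1, 89.5 and 88.9 CPM in MLL1 KD cells. Every pair was lower in KD, and the log2 fold change was -0.29 (SE 0.14, edgeR adjusted p = 0.566) without pairing and -0.28 (SE 0.09, edgeR adjusted p = 0.0396) with the replicate block. In AF9 KD cells ANXA11 had 126.0 and 120.0 CPM against 95.0 and 96.4 CPM in control cells. It passed the adjusted p upward, with a log2 fold change of 0.36 (SE 0.09, edgeR adjusted p = 0.0102), under 1.5-fold and beside 14.4% of genes that passed upward at any fold, and it passed with GC content offsets as well (0.29, edgeR adjusted p = 0.0184).

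ANXA4, which binds and stiffens membranes of secretory epithelia, had 26.3, 40.5 and 45.6 CPM in control and 17.5, 35.9 and 28.5 CPM in MLL1 KD cells. It was lower in the KD library of each pair, by -0.58, -0.18 and -0.67 on the log2 scale, and the replicate block gave a log2 fold change of -0.48 (SE 0.13, edgeR adjusted p = 0.0238) against -0.46 (SE 0.30, edgeR adjusted p = 0.699) without it. ANXA4 and ANXA11 were the members that passed the adjusted p downward with the replicate block at less than 1.5-fold, beside 6.94% of genes that passed downward at any fold. With replicate 3 left out of the blocked fit neither passed (edgeR adjusted p = 0.227 and 0.301), and with replicate 2 left out ANXA11 did not (0.279). In AF9 KD cells ANXA4 had 56.4 and 62.9 CPM against 53.8 and 54.1 CPM, a log2 fold change of 0.14 (SE 0.11, edgeR adjusted p = 0.328).

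ANXA7, also called synexin and able to fuse secretory vesicles, had 63.3, 58.4 and 60.5 CPM in control and 58.3, 57.4 and 49.6 CPM in MLL1 KD cells. It was the only member whose libraries did not overlap in that experiment, by 0.06 CPM between the nearest libraries, while 17.7% of genes tested did not overlap. The log2 fold change was -0.14 in MLL1 KD (SE 0.13, edgeR adjusted p = 0.808) and -0.13 in AF9 KD cells (SE 0.09, edgeR adjusted p = 0.316), where it had 144.4 and 135.0 CPM against 155.7 and 149.9 CPM. In the AF9 experiment all 9 members had groups that did not overlap, as did 66.0% of genes with 2 libraries a group.

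ANXA9, an annexin whose core has lost most of its calcium sites, was the most lowly expressed member, with 9 to 31 counts per library. It had 2.84, 3.60 and 3.44 CPM in control and 1.39, 1.70 and 3.35 CPM in MLL1 KD cells. In the AF9 experiment it had 1.38 and 0.75 CPM in control and 2.32 and 1.42 CPM in KD cells. The log2 fold changes of -0.61 (SE 0.41, edgeR adjusted p = 0.715) and 0.78 (SE 0.43, edgeR adjusted p = 0.188) did not pass the test. With 1 library left out they ranged from -1.09 (without MLL1 KD replicate 3) to -0.35 (without MLL1 KD replicate 1), and from 0.39 and 0.43 (without AF9 KD replicate 1 and control replicate 2) to 1.29 (without control replicate 1), so no change was detectable at this depth.

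To ask whether the knockdowns differed in their effect on a member, the 10 libraries were fitted together and the AF9 KD effect was subtracted from the MLL1 KD effect. Each knockdown had its own experiment, controls and depth of knockdown (KMT2A at 63.5% and MLLT3 at 18.6% of control). A difference between the effects thus cannot be told apart from one between the experiments. edgeR called no member without pairing, beside 0.818% of 14431 genes, 2 members had an unadjusted p below 0.05, beside 15.8% of genes, and DESeq2 on the same genes called 1 (ANXA11), beside 5.02%. The largest difference was that of ANXA1, 1.65 on the log2 scale (SE 0.60, unadjusted p = 0.0195, edgeR adjusted p = 0.214). The fit with a replicate block within each experiment called ANXA1 (1.62, SE 0.18, edgeR adjusted p = 9.6e-06), ANXA3 (0.84, SE 0.21, edgeR adjusted p = 0.0070), ANXA4 (-0.61, SE 0.17, edgeR adjusted p = 0.0156) and ANXA11 (-0.63, SE 0.13, edgeR adjusted p = 0.0015), beside 13.5% of genes. For ANXA1 every MLL1 pair was higher and every AF9 pair lower in KD cells, and the same held for ANXA2, which was not called. For ANXA11 the reverse held in all pairs, as it did for ANXA4 and for ANXA9, which was not called. The share of all genes with such opposed pairs was not counted, so these directions only describe the members. The AF9 pairs share only a number, and 66.0% of genes had AF9 groups that did not overlap. With GC content offsets added to the block, beside 8.28% of genes called, ANXA11 fell under 1.5-fold (-0.52, edgeR adjusted p = 0.0097) and ANXA6 was called (0.62, edgeR adjusted p = 0.0368). DESeq2 with the block called ANXA1, ANXA3 and ANXA11, beside 9.66% of genes, and edgeR without MLL1 KD replicate 1 and without pairing called ANXA1 and ANXA3, beside 6.04%.

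Levels of different annexins were compared only per kilobase (kb) of canonical transcript and within control cells. ANXA5 was highest in both experiments, with 41.8 ± 3.16 CPM per kb (SD, n = 3) in the MLL1 experiment and 80.8 ± 5.48 CPM per kb (SD, n = 2) in the AF9 experiment. ANXA2, ANXA3 and ANXA7 followed in the MLL1 experiment with 37.0, 31.1 and 24.8 CPM per kb, each overlapping the one before it. ANXA11, ANXA4 and ANXA1 overlapped each other at 15.5, 14.1 and 11.8 CPM per kb, and ANXA6 (4.33) and ANXA9 (2.12) lay below them without overlap. In the AF9 experiment the order was ANXA5, ANXA7 (62.5), ANXA3 (48.7) and ANXA2 (48.1), which overlapped, then ANXA1 (32.5), ANXA4 (20.4), ANXA6 (16.8), ANXA11 (14.2) and ANXA9 (0.69). ANXA1 stood at place 7 in the first order and 5 in the second. Division by all merged exons in place of the canonical transcript put ANXA7 first in the AF9 experiment, with ANXA5 next. Other places moved as well. ANXA2 then lay below ANXA11 in the MLL1 experiment (4.97 against 12.2 CPM per kb) and in the AF9 experiment (6.46 against 11.2), so both orders depend on the length used. The experiments had separate controls, so a difference in level between them cannot be told apart from one between batches.

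**Figure D4:**
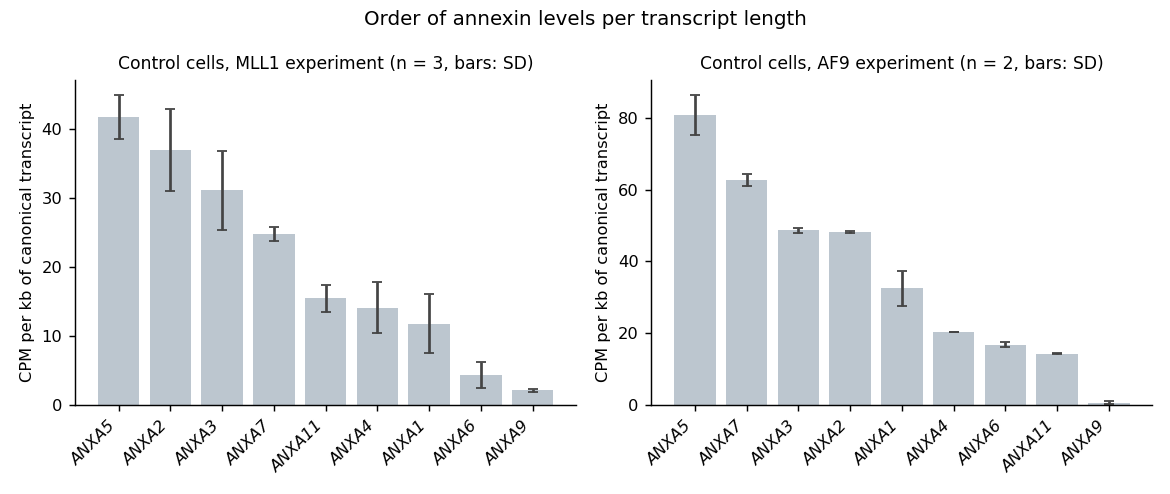
Mean level of each annexin in control cells (y axis, CPM per kb of canonical transcript, from 0; bars are SD) in falling order, for the MLL1 experiment (left, n = 3) and the AF9 experiment (right, n = 2). ANXA5 is highest in both panels, at 41.8 and 80.8, and ANXA9 lowest, at 2.12 and 0.69.

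Of the other rows whose symbol starts with ANXA, 8 in all, ANXA2R, which encodes a receptor of ANXA2, had 43 to 85 counts in the MLL1 experiment and 35 to 45 in the AF9 experiment. ANXA2P2 had 0 to 1 and 95 to 147 counts. ANXA8, ANXA8L1, ANXA10, ANXA2P1 and ANXA2P3 had 0 to 6 counts in any library, and 1 further row was at 0 in all 10.

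The calcium-binding partners of annexins did not move as one group. All 7 genes of that list were tested. None was called in MLL1 KD cells without pairing, where their median log2 fold change was -0.13. With the replicate block S100A6, the ANXA11 partner, was called at -1.29 (SE 0.17, edgeR adjusted p = 6.5e-05) and S100A4 at -1.20 (SE 0.14, edgeR adjusted p = 1.9e-05), beside 360 of 14391 genes called lower. Without pairing S100A6 had a log2 fold change of -1.27 and S100A4 of -1.20, with edgeR adjusted p of 0.127 and 0.157. None was called in AF9 KD cells, with a median of -0.10. S100A10, the ANXA2 partner, had log2 fold changes of -0.03 (MLL1 KD) and -0.16 (AF9 KD).

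Among formyl peptide receptors and eicosanoid synthesis genes, 6 of 8 were tested in MLL1 KD and 5 of 8 in AF9 KD cells. FPR1 and FPR2, the receptors of the ANXA1 peptide, had 0 to 7 counts per library and were not tested. PLA2G4A, the cytosolic phospholipase A2 that frees arachidonic acid and that ANXA1 is known to restrain, was called downregulated in AF9 KD cells (log2 fold change -0.60, SE 0.11, edgeR adjusted p = 0.0012), beside 5.06% of genes. With exon GC content offsets it was not (-0.41). ALOX5AP, which presents arachidonic acid to 5-lipoxygenase, was called in MLL1 KD cells with the replicate block (0.79, SE 0.17, edgeR adjusted p = 0.0039), beside 2.22% of genes called higher, and not without it (0.79, SE 0.39, edgeR adjusted p = 0.576). PLA2G4A was also the gene of this list called in the difference between the knockdowns, at 1.05 (SE 0.19, edgeR adjusted p = 0.0445) without pairing, beside 0.818% of genes, again not with GC content offsets (0.84, edgeR adjusted p = 0.0801). The list medians were 0.16 in MLL1 KD and -0.23 in AF9 KD cells, against 0.01 over all genes.

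All 6 genes of the list of the glucocorticoid receptor and genes it is known to induce were tested in both experiments. TSC22D3 (GILZ) was called downregulated in AF9 KD cells with a log2 fold change of -1.61 (SE 0.22, edgeR adjusted p = 2.5e-04), beside 5.06% of genes, and the list median there was -0.39. In MLL1 KD cells FKBP5, a chaperone of the receptor, was called at -0.73 with the replicate block (SE 0.08, edgeR adjusted p = 1.2e-05), beside 360 of 14391 genes called lower, and not without it (-0.72, SE 0.21, edgeR adjusted p = 0.299). The list median in MLL1 KD cells was 0.07. The receptor gene NR3C1 had log2 fold changes of 0.28 (SE 0.19) in MLL1 KD and -0.47 (SE 0.14, edgeR adjusted p = 0.0199) in AF9 KD cells, the latter under 1.5-fold. PER1, a clock gene, was called in AF9 KD cells only with GC content offsets (-0.79, edgeR adjusted p = 5.1e-04, against -0.30, edgeR adjusted p = 0.156), beside 575 of 13330 genes called lower with them. In the difference between the knockdowns none of the list was called without pairing, with or without GC content offsets. The fit with the replicate block called NR3C1 (0.76), TSC22D3 (1.40), ZBTB16 (0.66) and FKBP5 (-0.71), beside 13.5% of genes. S100A6, S100A4, PLA2G4A and CAPN1 were the genes of the other related lists called in that blocked fit. Of the 12 erythroid markers it called 7, all with negative differences: HBA1, HBA2, HBE1, HBZ, ALAS2, EPOR and TFRC. ALAS2 was also called without pairing, beside 0.818% of genes, but no erythroid marker was with GC content offsets alone.

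Of 8 genes of phosphatidylserine exposure and flipping, 7 were tested in each experiment. The flippase ATP11A was called upregulated in AF9 KD cells (0.61, SE 0.10, edgeR adjusted p = 6.1e-04), beside 8.02% of genes, but not with GC content offsets (0.55), and none was called in MLL1 KD cells with or without the replicate block. Of 9 membrane repair genes, 8 were tested in MLL1 KD and 7 in AF9 KD cells. The calpain subunit CAPN1 was called upregulated in AF9 KD cells (0.61, SE 0.10, edgeR adjusted p = 8.8e-04), beside the same 8.02% of genes, and its log2 fold change was 0.20 with GC content offsets, which was not called. None of 5 plasminogen activation genes was called, and only PLAUR, the urokinase receptor, was tested in MLL1 KD cells (0.54, SE 0.27, edgeR adjusted p = 0.58).

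The 5 genes most like ANXA1, by Pearson r of log2 CPM over the 10 libraries after each experiment's mean was taken off, among 12727 other genes tested in both, were CD47 (r = 0.99), MBNL1 (0.99), GPSM2 (0.98), ARID5B (0.98) and MECOM (0.98). These values are a description, and the libraries share replicate 1 and the knockdown groups. All 5 had log2 fold changes of the same signs as ANXA1, from 0.20 to 0.80 in MLL1 KD and from -0.81 to -0.11 in AF9 KD cells. The genes were picked over these same libraries, so the shared signs largely follow from the selection and are no separate result.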

How the data were processed

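RNA-seq measured polyA RNA of HEL cells in 10 libraries of 4 groups taken from the labels. According to the submitters' processing notes and the methods, the authors trimmed reads with fastp 0.13.1, aligned them to hg38 with HISAT2 2.1.0, counted them per gene by strand with featureCounts 1.6.1 and deposited raw counts. The annotation behind the gene symbols is not given in the sources used here. Counts were tested with edgeR 4.0.16 (R 4.3.3; TMM factors, glmQLFit and glmQLFTest, two-sided, Benjamini-Hochberg over all genes tested), on genes with a mean of at least 1 TPM (lengths from GENCODE 44, matched for 92.4% of symbols; otherwise 1 CPM), and called at adjusted p below 0.05 and at least 1.5-fold. SE is the log2 fold change over the root of the F statistic. DESeq2 1.42.0 was an alternative. The fits were also run on simulated counts, with the same dispersion for every gene and shifts of equal spread for every replicate number. These did not set replicate 1 apart, so the simulation cannot decide whether the replicate block suits these data. Levels are CPM with TMM factors, and log2 CPM adds a prior count of 2. Same-numbered libraries of the MLL1 experiment deviated from their group means together (r = 0.65, 0.33 and 0.35), so those numbers were taken as pairs. Control 2 with KD 3 (r = 0.37) and control 3 with KD 2 (r = 0.36) deviated together as much, so the check sets replicate 1 apart and does not tell replicate 2 from 3. The members and gene lists were chosen with earlier results of these data known. All 9 members, the 2 targeted genes, the other ANXA rows by count range, the called genes of the related lists and the 5 genes most like ANXA1 are named.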

Additional observations from a re-analysis of the deposited data

Results flagged for a closer look

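The difference between the knockdown effects, MLL1 KD minus AF9 KD, drew a closer look for the members it called in the fit of all 10 libraries with the replicate block. It was 1.62 on the log2 scale for ANXA1, 0.84 for ANXA3, -0.61 for ANXA4 and -0.63 for ANXA11. None of these 4 was called without the block in edgeR, where the differences were 1.65, 0.90, -0.60 and -0.64 with adjusted p of 0.214, 0.385, 0.532 and 0.141. In the AF9 experiment the replicate numbers share only a number, so the block is better founded in the MLL1 experiment. Knockdown and experiment cannot be told apart in these differences. No group held the 4 or more libraries needed to test for a single library far from the rest.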

How the results depend on the processing

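The replicate block decided the MLL1 KD calls. It gave 2 members and 679 genes called, against 0 and 9 without it. With GC content offsets as well it gave 2 and 678, and in DESeq2 2 and 464. Left out of the blocked fit in turn, pairs 1, 2 and 3 gave 1, 3 and 2 members and 693, 511 and 716 genes (ANXA4 was called, at -0.63, without pair 2), and replicates 2 and 3 alone gave 1 and 704; these 4 fits were chosen after seeing the data. Without the block, DESeq2 called 232 genes on the same genes and 213 on all genes before the filter, and edgeR without a filter beyond 1 count called 32, with no member among them in these 3 fits. Without MLL1 KD replicate 1, 53 genes were called, and without any 1 of the other 5 libraries 0; no member was called in these 6 fits.

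In AF9 KD, ANXA1 lost its call and only ANXA3 kept it with exon GC content offsets (1 member, 1065 genes called), with these and the replicate block, with canonical transcript GC content offsets (1029 genes, chosen after seeing the data), with total counts, without control replicate 1 (1054 genes, ANXA1 at -0.49) and without AF9 KD replicate 2 (ANXA1 at -0.47). Leaving out 1 library, with the lone library left in its group assumed to vary like the others, gave 1 to 2 members and 1054 to 1973 genes. Without a fold change threshold 4 members and 3862 genes passed. The AF9 replicate block, whose 2 pairs share only a number (r = 0.16), gave 2 members and 1957 genes against 2 and 1744.

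The difference between the effects was called for 4 members with the replicate block, 4 with the block and GC content offsets (ANXA6 in place of ANXA11), 1 in DESeq2 and 3 in DESeq2 with the block (beside 13.5%, 8.28%, 5.02% and 9.66% of genes), and for 0 to 2 with 1 library left out, the 2 being ANXA1 and ANXA3 without MLL1 KD replicate 1. Total counts shifted the median difference of all genes from -0.01 to -0.11.

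Some signs turned. With 1 library left out, ANXA2 in MLL1 KD ranged from -0.025 to 0.35, ANXA3 from -0.13 to 0.40 and ANXA5 from -0.021 to 0.090. ANXA3 was -0.0086 with the block and GC content offsets, and -0.19 and -0.091 in the blocked fit without pairs 2 and 3. ANXA5 was -0.078 in the blocked fit without pair 1 and -0.080 with replicates 2 and 3 alone. ANXA7 in AF9 KD was 9.1e-04 with canonical transcript GC content offsets. The difference of ANXA7 was 0.019 in DESeq2 and 0.017 with the block, 0.028 in DESeq2 on all genes, 0.029 with DESeq2 size factors, 0.0077 without a filter and -0.055 to 0.068 with 1 library left out. The difference of ANXA6, 0.58 with all libraries, ranged from -0.10 without MLL1 KD replicate 1 to 0.99. No other member's value turned under any alternative run. The causes were not tested. Each group held only 2 or 3 libraries and ANXA9 only 9 to 31 counts a library, which limits what changes can be seen.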
